A study of Mus musculus with 112 samples.

Results

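Among 19938 genes measured in the cerebral cortex of 7 mouse strains, 23 differed very strongly between strains. They were selected on the arrays of control-fed mice: a gene belonged when its highest strain mean exceeded its lowest by at least 1.5 on the log2 scale, that is, when 1 strain carried almost 3-fold more signal than another or a larger multiple. The gene for the reactive-astrocyte serpin Serpina3n, the H2- genes of the major histocompatibility complex and the small nucleolar RNA genes were left out, and each gene was read from the probe set of highest mean that carries its symbol alone. The study placed 8 male mice of each strain on a calorie-restricted (CR) diet and 8 on a control diet, and hybridised the cortical RNA of each mouse to its own Affymetrix array, 112 in all.

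Each diet had 7 groups. The hybrid B6C3F1/J is the first generation of a cross of C57BL6/J with C3H/HeJ and therefore carries 1 copy from each parent at every autosomal gene, and the other inbred strains were DBA/2J, CBA/J, Balbc/J and 129S1/SvImJ. All of the mice arrived at 6 weeks of age, lived alone in their cages, ate 84 kcal per week of an AIN93M-type food until 8 weeks and were then held on their diet until tissue was taken at 22 weeks, after a night without food. Balbc/J mice received more food than the other strains on both diets, and the CR allowance of 129S1/SvImJ and C57BL6/J mice was lowered further during the experiment. Because a strain is a whole genome, strain and allowance cannot be told apart where allowances differed. This holds for Balbc/J on both diets, and for 129S1/SvImJ and C57BL6/J on the CR diet.

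Inbred strains are fixed for 1 version of each gene, so that a variant that silences a gene, or doubles it, appears in every animal of the strain. A gene of this kind shows an on-off pattern across a panel of strains, and a first-generation hybrid then has 1 active and 1 silent copy. Other genes vary by degrees, and in brain tissue a large difference may also come from neighbouring tissue carried along in a dissection, the choroid plexus being the best known case.

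The rule used 54 control arrays, leaving out replicate 6 of C57BL6/J and replicate 8 of B6C3F1/J on the control diet, whose 12 cerebellar marker genes lay a median of 4.03 log2 above the other arrays of their groups in both cases. Among the arrays kept, replicate 6 of CBA/J on the CR diet and replicate 8 of DBA/2J on the control diet were also high in these genes, by 1.06 and 1.43 log2, where the next highest array exceeded its group by 0.35. Leaving out the CBA/J array, or all 4 such arrays for diet, left the counts of genes called for strain, 2-level pattern, hybrid and diet at the values given below. As to the labelled tissue, 9 cortical excitatory neuron markers averaged between 10.30 and 10.49 log2 in every CR group, and between 10.42 and 10.46 in every control group. The medians of the 112 arrays ran from 7.14 to 7.26 log2. The values have no read depth, so that the number of arrays limits their precision. Differences between control groups chose the genes and are given below as descriptions, without a test, whereas the 56 CR arrays come from other mice and were tested. Just inside the threshold stood Mir665 (1.52 log2), Eqtn (1.53) and Gas5 (1.53), and just outside it Trappc2l (1.498), Myl4 (1.49) and Masp2 (1.48).

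In the CR mice the strain differences of the 23 genes recurred. Their range over the 7 CR means had a median of 1.74 log2, against 0.24 over all genes, and the median spread within a group was 0.21 log2 in these genes, against 0.13 over all genes. The range reached 1.5 log2 in 18 of the 23 genes, where 0.12% of all genes reached it, and it was under 1 in 0 of them. By limma's moderated F test 22 of the 23 differed between strains at an adjusted p under 0.05, beside 64.2% of all genes. The exception was Ttr (adjusted p = 0.20). The strain that was highest in control mice was also highest in CR mice for 21 genes, and the lowest strain was shared for 18.

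**Figure D1:**
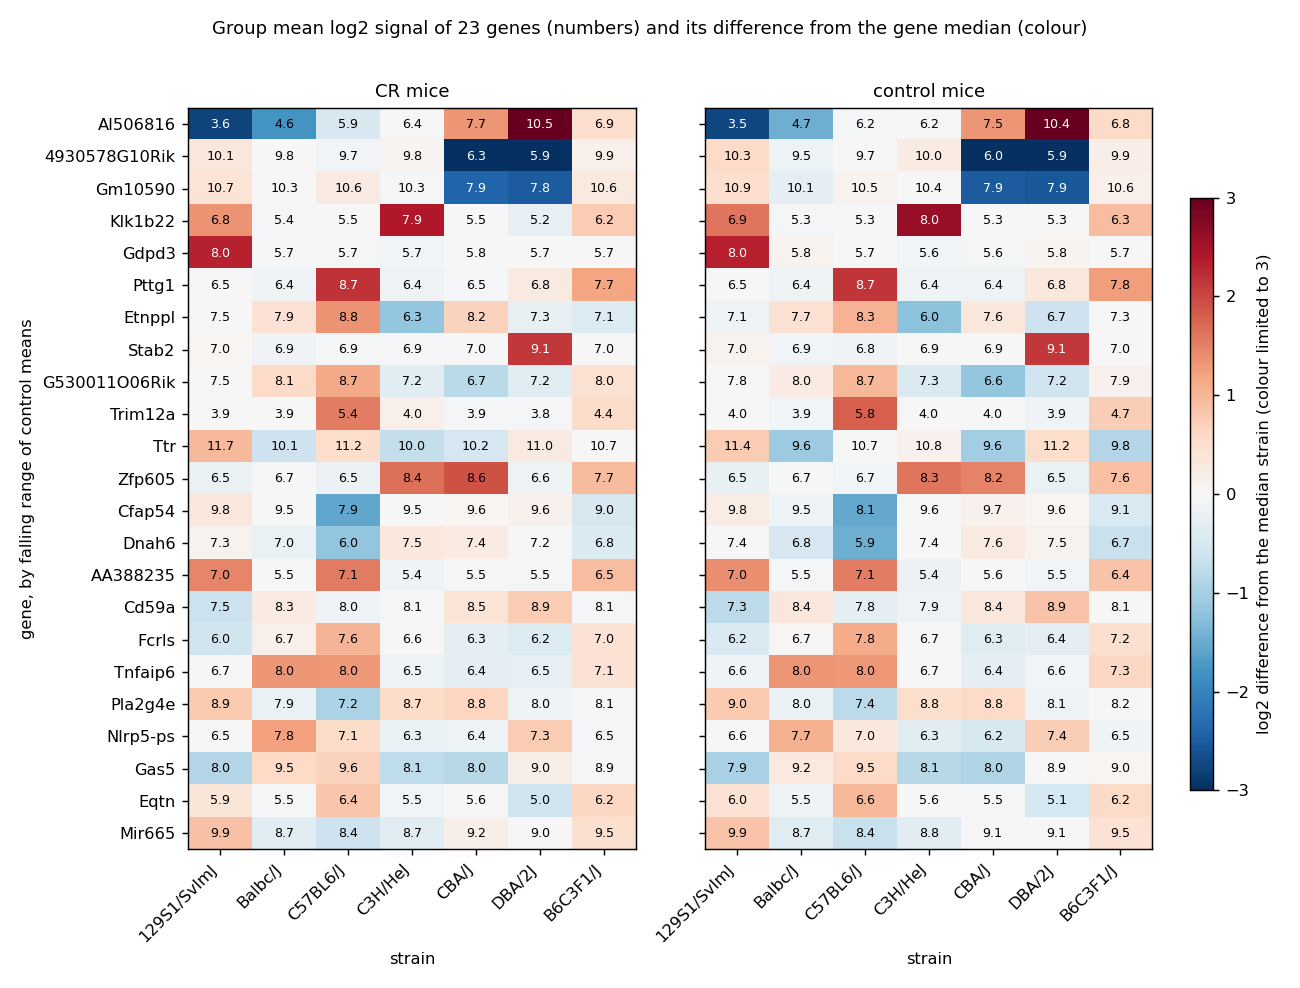
Mean log2 signal (numbers in the cells) of the 23 genes in the 7 strains, in CR mice on the left and control mice on the right; rows are genes by falling range of control means, columns are strains, and colour gives the log2 difference from the gene's median strain. The pattern of each row in CR mice resembles that in control mice, as for AI506816, whose range was 6.86 log2 in CR mice and 6.97 in control mice, and departs most for Ttr.

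To describe on-off patterns, the 6 inbred strains were divided for each gene at the largest gap between their sorted control means, and the gene was called 2-level when this gap made up at least 0.6 of the inbred range and at least 1 log2. Of the 23 genes, 11 were 2-level, and 10 of the other 19915 genes met the same criterion. The selection and this criterion used the same control means, so the contrast of these 2 counts follows largely from the selection. In CR arrays the high strains exceeded the low strains in all 11 (adjusted p under 0.05, limma), as in 22 of the 23 genes, beside 60.3% of all genes. The division chosen on control arrays also separated every single CR array of the high strains from every CR array of the low strains in all 11, and in 17 of the 23, whereas this held for 3.18% of all genes.

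**Figure D2:**
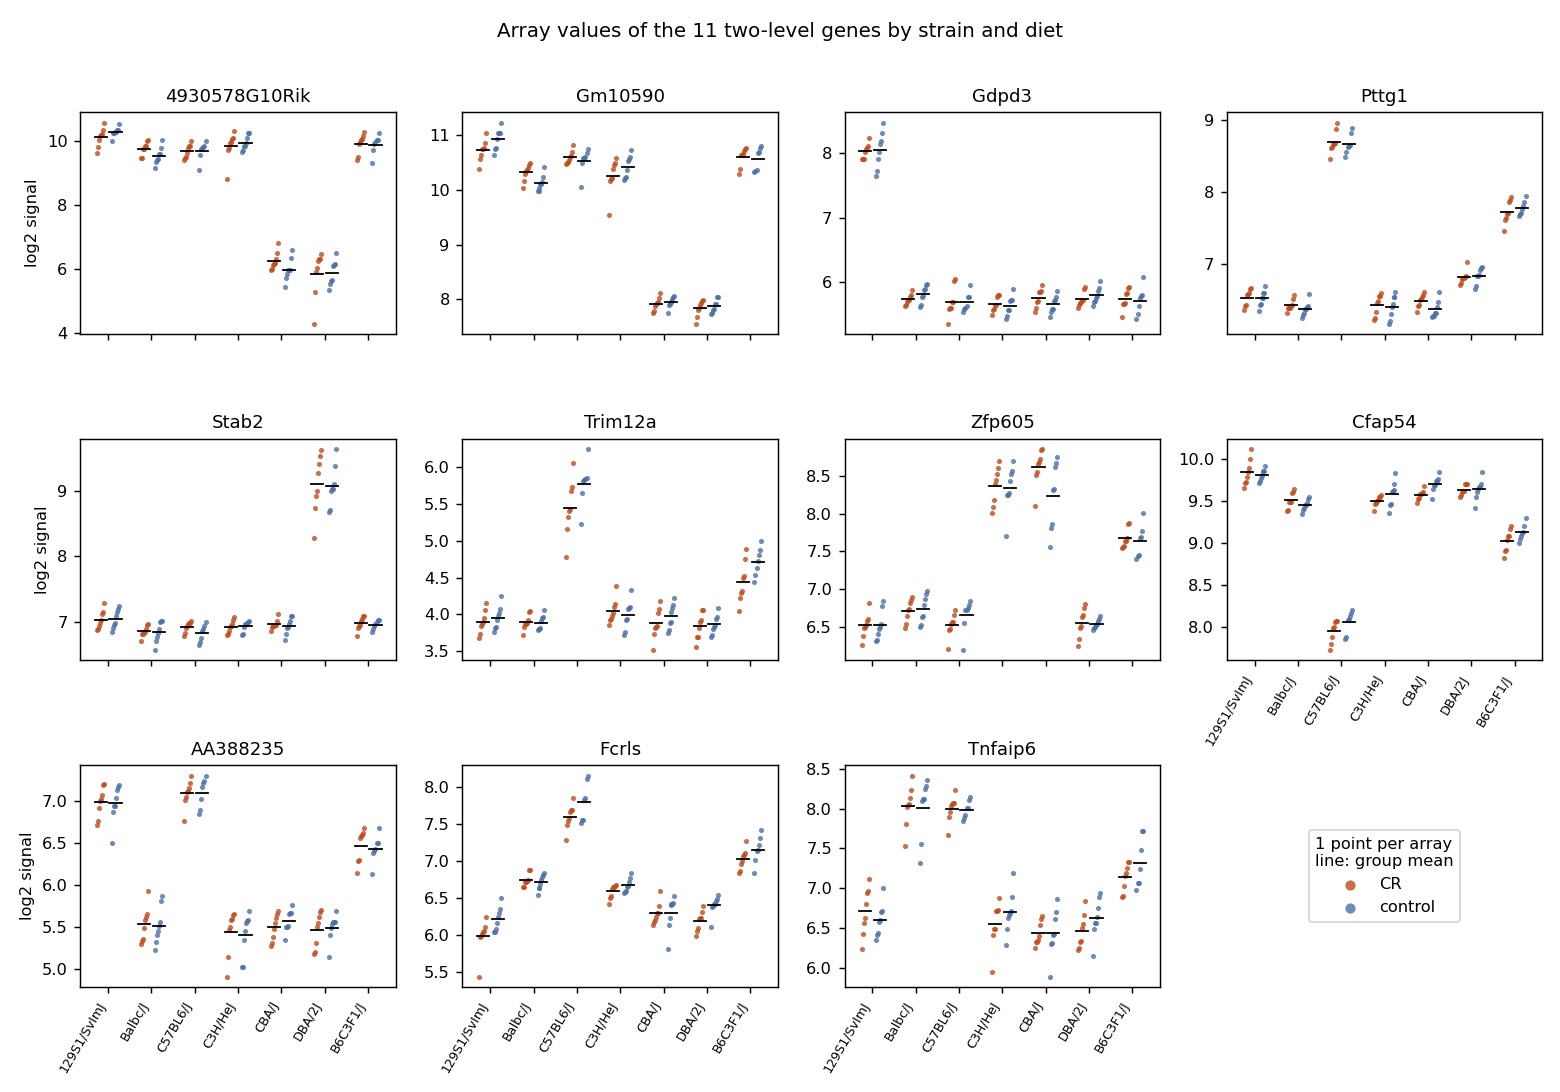
Log2 signal (vertical axis) of every array for the 11 two-level genes, by strain (horizontal axis), with CR arrays on the left of each strain, control arrays on the right, and a line at each group mean. High and low strains form separate bands; the hybrid B6C3F1/J lies between its parents for Pttg1, Trim12a, Zfp605, Cfap54, AA388235, Fcrls and Tnfaip6.

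C57BL6/J stood alone among the inbred strains in 4 of the 11 genes, being the only high strain for 3 and the only low strain for 1. Pttg1, which encodes securin, the protein that holds back separation of sister chromatids, had 8.46, 8.67 and 8.96 log2 in C57BL6/J CR mice (lowest, median and highest array), and 6.22 to 7.02 in the 40 CR arrays of the other inbred strains. In control mice the C57BL6/J arrays lay at 8.48, 8.64 and 8.89 log2. No array of another inbred strain came within 1.44 log2 of the C57BL6/J CR arrays, and the difference of means was 2.16 ± 0.05 (SE; adjusted p = 2.0e-40). Among the low strains DBA/2J was slightly higher, averaging 6.81 ± 0.09 log2 in CR mice and 6.83 ± 0.11 in control mice (SD, n = 8).

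Trim12a belongs to the tripartite-motif family, which includes restriction factors against retroviruses. It had 4.77, 5.42 and 6.06 log2 in C57BL6/J CR mice, against 3.52 to 4.38 in the CR arrays of the other 5 inbred strains. All of these levels lay below the array medians and were not set against a background. The bands were 0.39 log2 apart, and the means differed by 1.53 ± 0.09 (adjusted p = 5.5e-22). The neighbouring family member Trim12c did not share this pattern, its C57BL6/J mean lying 0.35 log2 below the mean of the other inbred strains in CR mice. Related Trim genes are similar in sequence, and a probe may read more than 1 of them.

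Fcrls, an Fc receptor-like scavenger receptor found on microglia, had 7.28, 7.62 and 7.85 log2 in C57BL6/J CR mice, against 5.44 to 6.88 in the other inbred CR arrays. Its means differed by 1.24 ± 0.06 (adjusted p = 1.1e-25), and no arrays overlapped. The low strains were themselves spread, from 5.98 ± 0.23 in 129S1/SvImJ to 6.75 ± 0.09 in Balbc/J (SD, n = 8). Beside this, the mean of the 5 microglial markers (Cx3cr1, P2ry12, Tmem119, Csf1r and Aif1) ranged over 0.36 log2 between CR strain means, with the highest level in C3H/HeJ and the lowest in 129S1/SvImJ. In bulk tissue, fewer cells of a type and less RNA per cell cannot be told apart.

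The gene with a low C57BL6/J level was Cfap54, which encodes a protein of the central pair of microtubules in motile cilia. C57BL6/J CR mice had 7.72, 7.99 and 8.07 log2, and the other inbred CR arrays 9.37 to 10.12. High minus low strains came to 1.66 ± 0.04 log2 (adjusted p = 4.2e-38). A second probe set of Cfap54, which the selection did not use, gave 1.201 log2 for the same division, with 6.76 log2 in C57BL6/J and 7.84 to 8.02 in the other inbred CR means.

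Dnah6, an axonemal dynein heavy chain that drives the beat of such cilia, was also lowest in C57BL6/J, although it did not meet the 2-level criterion. Its C57BL6/J CR arrays lay at 5.78, 5.98 and 6.24 log2, and those of the other inbred strains between 6.65 and 7.91. The means differed by 1.26 ± 0.11 log2 (adjusted p = 3.6e-14). Both further probe sets of Dnah6 gave the same order of C57BL6/J below the other inbred strains, with 1.29 and 1.12 log2. Within groups, Dnah6 moved with the mean of 6 striatal markers across the 110 arrays (r = 0.64, a description) and with those of oligodendrocytes (r = 0.59), endothelium (r = 0.53) and microglia (r = 0.51), and in CR mice the striatal markers were highest in C57BL6/J, where Dnah6 was lowest; the part of these lists in the result was not tested.

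The promoter of Dnah6 is shown because genes of motile cilia are known targets of RFX transcription factors, which bind the X-box, a pair of inverted repeats, and Dnah6 was the member whose promoter held one, a search made after its values were seen. The 300 bases from RefSeq (GRCm38.p6, chr6:73221582-73221881, minus strand, 250 bases before to 50 after the annotated start) carry GTTGCNNNGCAAC, searched on both strands and marked in capitals, from 36 to 24 bases before the start.
Dnah6 promoter: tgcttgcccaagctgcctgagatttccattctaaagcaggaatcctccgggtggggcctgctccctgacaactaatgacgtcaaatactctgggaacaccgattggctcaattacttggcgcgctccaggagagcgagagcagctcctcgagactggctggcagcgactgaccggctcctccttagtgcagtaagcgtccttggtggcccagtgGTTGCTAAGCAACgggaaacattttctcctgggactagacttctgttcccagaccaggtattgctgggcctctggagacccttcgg
The motif occurred in 0.225% of the 32851 RefSeq promoters and in 1 of the 17 members with a promoter entry. Cfap54 had no such entry, so its promoter was not searched. The reference genome is that of C57BL6/J, the strain with the low level, so the printed letters are those of the low strain, and a match is a description of the letters only.

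Each of 2 genes was high in a single other strain. Gdpd3, a glycerophosphodiester phosphodiesterase that releases lysophosphatidic acid from lysophospholipids, had 7.91, 8.04 and 8.24 log2 in 129S1/SvImJ CR mice, against 5.35 to 6.05 in the CR arrays of the other 5 inbred strains. The means differed by 2.32 ± 0.06 log2 (adjusted p = 3.8e-39), and the 5 low strains had CR means between 5.66 and 5.75. Its 2 nearest measured genes on either side, by RefSeq order, had CR ranges of 0.16 to 0.27 log2.

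Stab2 encodes stabilin-2, the receptor by which sinusoidal endothelium clears hyaluronan. In DBA/2J CR mice it had 8.28, 9.14 and 9.62 log2, against 6.72 to 7.29 in the other inbred CR arrays, a difference of means of 2.15 ± 0.07 (adjusted p = 6.8e-32). In control mice DBA/2J had 8.68, 9.02 and 9.63 log2. The DBA/2J arrays were also more scattered, with an SD of 0.45 in CR mice and 0.32 in control mice, where no other group exceeded 0.16.

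In the other 5 two-level genes the high or low state was shared by several inbred strains. 4930578G10Rik, a long non-coding RNA, and Gm10590, the platform's name for the gene that RefSeq now lists as the transcribed pseudogene Gm2192, were both low in CBA/J and DBA/2J and both lie on chromosome 4. 4930578G10Rik had 8.83 to 10.58 log2 in the 32 CR arrays of the high strains, against 4.29 to 6.80 in the 16 of CBA/J and DBA/2J, a difference of 3.80 ± 0.12 (adjusted p = 6.1e-34). Gm10590 had 9.55 to 11.05 log2 in the high strains, against 7.55 to 8.12, a difference of 2.60 ± 0.06 (adjusted p = 1.3e-40). The bands were 2.02 and 1.43 log2 apart.

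These are members of a repeated family. The platform gives Gm10590 3 further probe sets whose values are identical to those used, so they add nothing, and it names Gm10590 together with other symbols on 9 more probe sets. On those 9 the same division gave −0.13 to 0.04 log2 in CR mice, so that the CBA/J and DBA/2J pattern was not carried by the probe sets shared with other copies. Within groups both genes moved with the mean of the excitatory neuron markers across the 110 arrays (r = 0.57 for 4930578G10Rik and 0.53 for Gm10590); the part of these markers in the result was not tested.

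Zfp605, a zinc finger gene, was high in C3H/HeJ and CBA/J, with 8.01 to 8.85 log2 in their 16 CR arrays, against 6.21 to 6.89 in the other 32. The difference was 1.91 ± 0.06 (adjusted p = 9.3e-35). AA388235, a long non-coding RNA gene next to H2-K2 in RefSeq order, was high in 129S1/SvImJ and C57BL6/J, with 6.71 to 7.29 log2, against 4.91 to 5.93 in the low strains (1.56 ± 0.06; adjusted p = 2.5e-29). H2-K2 itself differed by 0.40 log2 on the same division. Tnfaip6, which encodes the secreted hyaluronan-binding protein TSG-6, was high in Balbc/J and C57BL6/J, with 7.52 to 8.41 log2, against 5.94 to 7.11 (1.48 ± 0.07; adjusted p = 1.2e-25). Within groups Tnfaip6 moved with the mean of 4 oligodendrocyte markers (r = 0.60 over 110 arrays), a list that in CR mice ranged over 0.43 log2 and was highest in C57BL6/J and lowest in DBA/2J; its part in the result was not tested.

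The remaining 12 genes did not meet the 2-level criterion. AI506816, a long non-coding RNA gene, had the widest range of the 23, 6.86 log2 in CR mice and 6.97 log2 in control mice. Its lowest levels lay far below the array medians and were not set against a background, so these ranges describe signal and are not given as folds of RNA. DBA/2J CR mice had 10.16, 10.45 and 10.88 log2. CBA/J mice followed with 7.11, 7.73 and 8.05, C3H/HeJ with 5.96, 6.44 and 6.83, and C57BL6/J with 5.55, 5.91 and 6.17. Balbc/J had 3.95, 4.59 and 5.27 log2, and 129S1/SvImJ 3.00, 3.54 and 4.16. The ranges of arrays overlapped between C3H/HeJ and C57BL6/J and between Balbc/J and 129S1/SvImJ, and between no other neighbours in this order.

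Klk1b22, a glandular kallikrein of the serine protease family, was highest in C3H/HeJ. C3H/HeJ CR mice had 7.64, 7.78 and 8.23 log2, 129S1/SvImJ 5.55, 6.74 and 7.88, and the other 4 inbred strains 4.78 to 5.84. The 129S1/SvImJ mice were widely spread and overlapped both C3H/HeJ and the low strains, with an SD of 0.69 in CR mice and 0.66 in control mice, against 0.21 and 0.09 in C3H/HeJ. Kallikrein genes are near-identical copies of each other, so the level of this copy is uncertain.

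Etnppl encodes the enzyme that breaks down phosphoethanolamine and is made by astrocytes. It averaged 8.83 ± 0.26 log2 in C57BL6/J CR mice and 6.32 ± 0.51 in C3H/HeJ CR mice (SD, n = 8), its highest and lowest strains on both diets. Single arrays of other strains overlapped those of C3H/HeJ. The mean of 4 astrocyte markers (Gfap, Aqp4, Aldh1l1 and Slc1a3) ranged over 0.42 log2 between CR strain means, from Balbc/J as the highest to 129S1/SvImJ as the lowest.

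Gas5, the long non-coding RNA whose introns hold a series of small nucleolar RNAs, was high in C57BL6/J (9.56 ± 0.11 log2), Balbc/J (9.46 ± 0.08) and DBA/2J (9.05 ± 0.11), and low in C3H/HeJ (8.11 ± 0.21), CBA/J (8.05 ± 0.10) and 129S1/SvImJ (7.99 ± 0.12) in CR mice (SD, n = 8). The 24 arrays of the high strains and the 24 of the low strains were 0.53 log2 apart, with means differing by 1.31 ± 0.04 (adjusted p = 4.8e-35). On the same division its 3 further probe sets gave 0.46, 0.47 and 1.15 log2, so the probe sets disagreed in size but not in direction. Snord47, a small nucleolar RNA gene listed beside Gas5, differed by 0.64 log2.

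Pla2g4e, a phospholipase of the cytosolic group IV family that forms N-acyl-phosphatidylethanolamines in brain, was high in 129S1/SvImJ, CBA/J and C3H/HeJ, with 8.45 to 9.14 log2 in 24 CR arrays, and lower in DBA/2J, Balbc/J and C57BL6/J, with 6.94 to 8.15 in 24. The difference was 1.09 ± 0.04 (adjusted p = 2.0e-29). C57BL6/J was the lowest, at 7.18 ± 0.21 log2.

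Cd59a, the membrane-anchored inhibitor of the complement attack complex, averaged 8.86 ± 0.23 log2 in DBA/2J CR mice and 7.45 ± 0.25 in 129S1/SvImJ CR mice. Its paralog and neighbour Cd59b also varied, with a CR range of 1.10 log2 and a difference of 0.59 on the division of Cd59a, against 0.90 ± 0.09 for Cd59a itself. Probes may not tell these 2 copies apart. Within groups Cd59a moved with the striatal markers (r = 0.70 over 110 arrays) and against the excitatory neuron markers (r = −0.54); in CR mice the striatal list was highest in C57BL6/J and lowest in B6C3F1/J, neither of which was the highest or lowest strain for Cd59a, and the part of these markers was not tested. G530011O06Rik, a long non-coding RNA gene on chromosome X, averaged 8.69 ± 0.31 log2 in C57BL6/J CR mice and 6.72 ± 0.17 in CBA/J CR mice. Nlrp5-ps, a transcribed pseudogene, was highest in Balbc/J (7.77 ± 0.30), and Eqtn, the gene of a protein of the sperm acrosome, was highest in C57BL6/J (6.41 ± 0.22) and lowest in DBA/2J (4.99 ± 0.18).

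Ttr differed from the other 22 genes. It encodes transthyretin, the thyroxine and retinol carrier secreted by the choroid plexus, and its values within a single group spanned several log2 units. 129S1/SvImJ CR mice had 9.18, 12.15 and 13.18 log2, and C3H/HeJ CR mice 8.20, 10.06 and 12.12. The pooled SD within groups was 1.41 log2, against a median of 0.21 in the 23 genes. The strain order also changed: C3H/HeJ was the lowest strain in CR mice and Balbc/J in control mice, where C3H/HeJ averaged 10.81 log2. Within groups, Ttr moved with the mean of the 7 other choroid plexus markers (Kl, Folr1, Kcnj13, Aqp1, Clic6, Sostdc1 and Otx2) across the 110 arrays, with r = 0.85, and with each alone between r = 0.42 for Clic6 and 0.87 for Sostdc1. Of the 8 markers, 0 were called for diet. The part of choroid plexus tissue in the level of Ttr was not tested.

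The first-generation hybrid addressed how 2 parental levels combine. In 14 of the 23 genes the C57BL6/J and C3H/HeJ control means were at least 1 log2 apart, and in CR mice the B6C3F1/J mean lay between the parents in all 14 on the probe sets used. For Gas5 the further probe sets disagreed on this. On the first the hybrid CR mean was 8.17 log2, below C57BL6/J (8.57) and C3H/HeJ (8.21). The second gave 6.67, below 7.29 and 6.72, and the third 4.67, between 5.44 and 4.38. On the unlogged scale, where the levels of 2 independently working copies of an autosomal gene would add, the hybrid stood a median of 39.1% of the way from the lower to the higher parent, with a range of 14.9% for Etnppl to 71.8% for Eqtn. On the log2 scale the median was 52.7%. In control mice the hybrid stood, unlogged, 0.35 of the way up for Etnppl and 0.49 for Eqtn. The extremes given above are therefore those of CR mice only. Of the 14, G530011O06Rik lies on chromosome X, and since the mice were male 2 parental copies cannot be assumed for it. Without it the medians over the other 13 were 38.1% and 52.6%, and the counts of genes called below were the same, a comparison added after the values were seen.

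Against the mean of the parents' log2 levels, the hybrid differed in 7 of the 14 genes (limma, adjusted p under 0.05), beside 23.1% of all genes. In the 14 genes it was higher for 5, Pttg1, Zfp605, Cfap54, Pla2g4e and Eqtn, by 0.16 to 0.30 log2, and lower for 2, Etnppl and Trim12a. For Etnppl this held in CR mice only. In control mice, not tested, its hybrid mean was 7.28 log2, against 8.33 in C57BL6/J and 6.04 in C3H/HeJ, 0.54 of the way up on the log2 scale. Strain and the lowered CR allowance of C57BL6/J cannot be told apart here. Against the mean of the unlogged parental levels the hybrid differed in CR mice in 6 of 14, beside 23.2% of all genes, and was then lower for 5 and higher for 1. The choice of scale thus changed the direction for Pttg1, from 0.16 ± 0.05 log2 above the first mean (adjusted p = 0.024) to −0.25 from the second (adjusted p = 0.00099).

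Pttg1 had 7.46, 7.70 and 7.92 log2 in B6C3F1/J CR mice, against 8.46, 8.67 and 8.96 in C57BL6/J and 6.22, 6.47 and 6.60 in C3H/HeJ. No arrays of the 3 groups overlapped, and the hybrid stood 38.1% of the way up on the unlogged scale. Cfap54 had 8.82, 9.05 and 9.20 log2 in the hybrid, against 7.72, 7.99 and 8.07 in C57BL6/J and 9.38, 9.51 and 9.57 in C3H/HeJ. It lay 57.7% of the way up, 0.30 ± 0.05 log2 above the log2 mean of the parents (adjusted p = 1.2e-06) and 0.11 above the unlogged mean (adjusted p = 0.11). On the second probe set of Cfap54 the hybrid lay nearer the log2 mean of the parents. Its CR means there were 7.45 log2 in the hybrid, 6.76 in C57BL6/J and 8.01 in C3H/HeJ, given without a test. Zfp605, AA388235 and Pla2g4e stood at 47.0%, 48.6% and 51.2%, and their differences from the unlogged mean were between −0.05 and 0.02 log2 (adjusted p of 0.71 to 0.90).

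In CR mice the hybrid was nearest the lower parent for Etnppl, Klk1b22 and Trim12a. Etnppl had 6.89, 7.04 and 7.57 log2 in B6C3F1/J CR mice, against 8.36, 8.89 and 9.18 in C57BL6/J and 5.70, 6.27 and 7.28 in C3H/HeJ, so that the hybrid arrays overlapped those of C3H/HeJ only. It lay 0.98 log2 below the unlogged parental mean (adjusted p = 2.4e-06). Klk1b22 in the hybrid was spread over 5.18, 6.42 and 6.96 log2, against 4.97, 5.56 and 5.64 in C57BL6/J and 7.64, 7.78 and 8.23 in C3H/HeJ. Trim12a had 4.04, 4.41 and 4.89 log2 in the hybrid, against 4.77, 5.42 and 6.06 in C57BL6/J and 3.86, 4.00 and 4.38 in C3H/HeJ, and its hybrid arrays overlapped those of both parents. Its hybrid mean lay 19.4% of the way up.

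**Figure D3:**
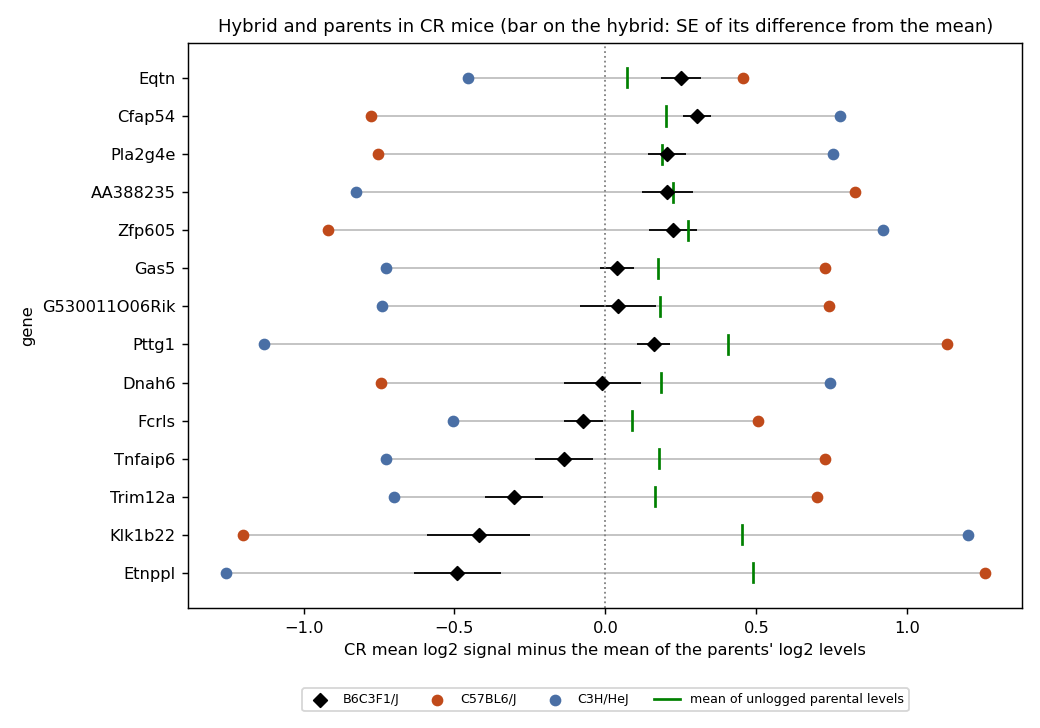
CR mean log2 signal of the hybrid B6C3F1/J (diamonds, with the SE of its difference from the parents' mean) and of its parents C57BL6/J and C3H/HeJ (circles), relative to the mean of the parents' log2 levels (horizontal axis), for the 14 genes whose parents were at least 1 log2 apart in control mice (vertical axis). The green bar marks the mean of the unlogged parental levels; Eqtn, at 71.8% of the way to the higher parent, is at the top and Etnppl, at 14.9%, at the bottom.

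For 2 genes the hybrid lay over 0.5 log2 outside both parents in CR mice as well as in control mice, and in both cases above them. AI506816 had 6.40, 6.98 and 7.22 log2 in B6C3F1/J CR mice, against 5.55, 5.91 and 6.17 in C57BL6/J and 5.96, 6.44 and 6.83 in C3H/HeJ. Its hybrid mean exceeded the log2 mean of the parents by 0.75 (adjusted p = 9.0e-06), although its arrays overlapped those of C3H/HeJ. The other was Mir665.

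Mir665 is a microRNA gene of the Meg3 cluster on chromosome 12, an imprinted domain in which the non-coding RNAs are made from the maternally inherited chromosome. A microRNA gene yields a hairpin from which 1 or both arms are cut, and the seed of an arm, bases 2 to 8, pairs with target messages. The sequences are shown because Mir665 and the neighbouring Mir337 and Mir540 had the same hybrid pattern. The array values are those of probe sets named for each gene, so the levels of the mature arms are not known from them. The printed sequences come from RefSeq (GRCm38.p6, plus strand), the hairpin of Mir665 lying at chr12:109586314-109586407 with its arms in capitals, and the mature arms having the seed in capitals.
Mir665 hairpin: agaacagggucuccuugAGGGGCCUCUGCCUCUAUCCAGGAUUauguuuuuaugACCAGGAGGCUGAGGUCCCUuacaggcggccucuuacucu
mmu-miR-665-5p: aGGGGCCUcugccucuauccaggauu
mmu-miR-665-3p: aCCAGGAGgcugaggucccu
mmu-miR-540-5p: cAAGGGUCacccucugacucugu
mmu-miR-540-3p: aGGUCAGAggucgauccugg
mmu-miR-337-5p: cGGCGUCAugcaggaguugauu
mmu-miR-337-3p: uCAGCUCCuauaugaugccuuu
The 6 arms have 6 different seeds, so no 2 of them share a seed.

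Mir665 had 9.30, 9.48 and 9.70 log2 in B6C3F1/J CR mice, against 8.25, 8.34 and 8.60 in C57BL6/J and 8.63, 8.70 and 8.86 in C3H/HeJ. No hybrid array overlapped an array of either parent, and the hybrid mean lay 0.94 ± 0.05 log2 above the mean of the parents (SE; adjusted p = 1.5e-19) and 0.79 above the higher one. In control mice the hybrid had 9.41, 9.54 and 9.70 log2, against 8.04, 8.45 and 8.66 in C57BL6/J and 8.38, 8.75 and 9.45 in C3H/HeJ, whose highest array reached into the range of the hybrid. Of the inbred strains 129S1/SvImJ was highest, with 9.91 ± 0.19 log2 in CR mice.

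The region of Mir665 was examined after these values were seen. Mir337 and Mir540, the 2 measured genes before it in RefSeq order, lay 0.72 ± 0.05 and 0.61 ± 0.04 log2 above the mean of the parents in hybrid CR mice (adjusted p = 1.3e-15 and 7.6e-16). Mir431, the next gene after it, lay 0.22 ± 0.05 above (adjusted p = 0.0015). Of the 39 other microRNA genes measured between Meg3 and Dio3, 17 were higher in the hybrid than the mean of its parents and 2 were lower, with a median of 0.14 log2, where the median over all genes was 0.02 and 9.99% of all genes were called higher. The long transcript Meg3 itself lay 0.08 ± 0.03 log2 above (adjusted p = 0.0496). The microRNA genes share transcripts and are not independent of each other.

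**Figure D4:**
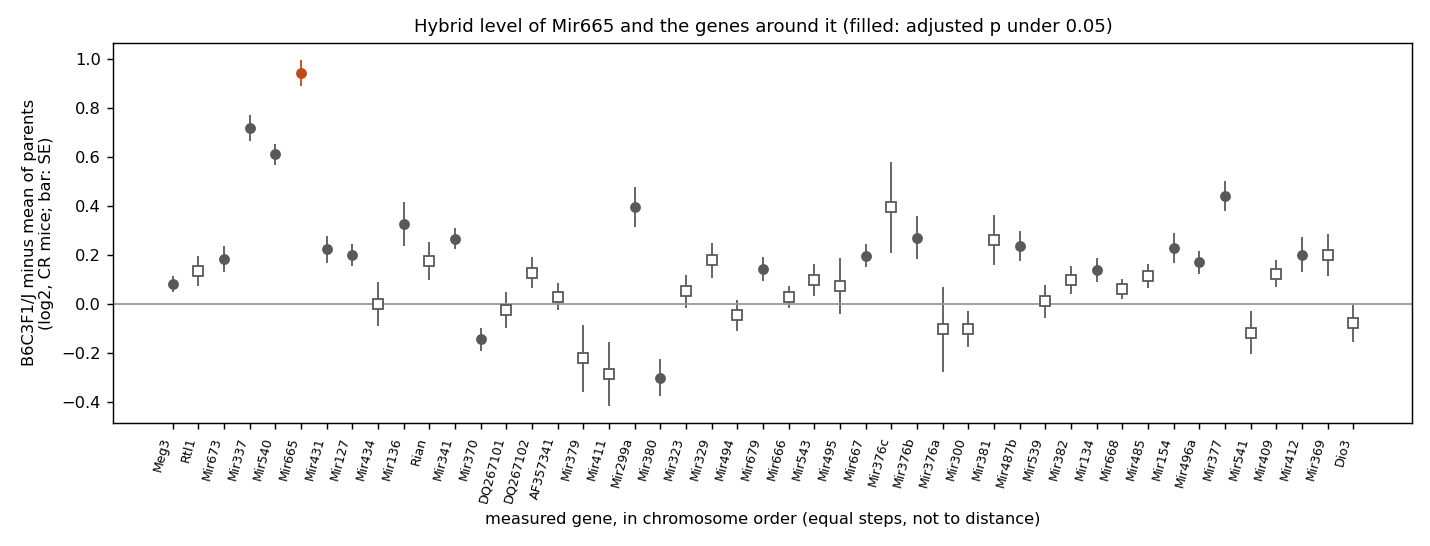
Difference between the hybrid B6C3F1/J and the mean of its parents in CR mice (vertical axis, log2, with SE) for the measured genes of the Meg3 region in chromosome order (horizontal axis, equal steps); filled points had an adjusted p under 0.05 and Mir665 is coloured. Mir665 (0.94), Mir337 (0.72) and Mir540 (0.61) stand together above the rest of the region.

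Diet, the comparison the study was built on, moved few of these genes. Averaged over the 7 strains, CR minus control was called in 3 of the 23 (limma, adjusted p under 0.05), 1 higher and 2 lower, beside 4.36% of all genes, and 6 of the 23 had an unadjusted p under 0.05. Apart from Ttr, 148 of 154 pairs of CR and control means of a gene and strain lay within 0.3 log2 of each other.

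Etnppl rose by 0.33 ± 0.06 log2 in CR mice (SE; adjusted p = 0.00028), and its CR mean was the higher in 6 of 7 strains. The largest difference was in DBA/2J, with 6.74, 7.24 and 7.70 log2 in CR mice, against 6.18, 6.65 and 7.51 in control mice. The exception was B6C3F1/J, with 6.89, 7.04 and 7.57 in CR mice, against 6.94, 7.14 and 7.86 in control mice. The 7.51 log2 in DBA/2J control mice was replicate 8, an array high in cerebellar markers, and the next array had 6.74. In the left-out control arrays of C57BL6/J and B6C3F1/J, Etnppl lay 1.53 and 1.65 log2 above the mean of the other 7. The part of cerebellar tissue in the result was not tested. Within groups Etnppl fell where the excitatory neuron markers rose (r = −0.54 over 110 arrays), and this list averaged 0.04 log2 lower in CR mice, with 0 of 9 markers called in either direction. It rose with the 5 thalamic markers (r = 0.43), which averaged 0.09 log2 higher in CR mice, in 5 of 7 strains and with 0 of 5 called, and with the striatal markers (r = 0.36), which averaged 0.04 log2 higher with 0 of 6 called. The part of these lists in the result was not tested. The 4 astrocyte markers differed by −0.01 log2, with 0 of 4 called.

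Fcrls fell by 0.12 ± 0.03 log2 in CR mice (adjusted p = 0.015) and was lower in 6 of 7 strains, all but Balbc/J. The 5 microglial markers averaged 0.02 log2 lower, with 0 of 5 called. Without 129S1/SvImJ the adjusted p of Fcrls was 0.082, without DBA/2J it was 0.096, and with all 112 arrays it was 0.42. In the array of C57BL6/J control mice that is high in cerebellar genes, Fcrls had 6.45 log2, against a mean of 7.79 ± 0.27 in the other 7.

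Pla2g4e fell by 0.11 ± 0.03 log2 in CR mice (adjusted p = 0.032) and was lower in 7 of 7 strains, most in C57BL6/J, with 6.94, 7.21 and 7.48 log2 in CR mice, against 7.18, 7.40 and 7.66 in control mice. Within groups it moved with the excitatory neuron markers (r = 0.71) and against the striatal markers (r = −0.61), which averaged 0.04 log2 higher in CR mice; their part in the result was not tested. Its adjusted p was 0.079 without 129S1/SvImJ, 0.20 without C57BL6/J, 0.060 without DBA/2J and 0.059 with all 112 arrays. Gas5 had a difference of 0.08 log2 that did not pass (adjusted p = 0.060).

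**Figure D5:**
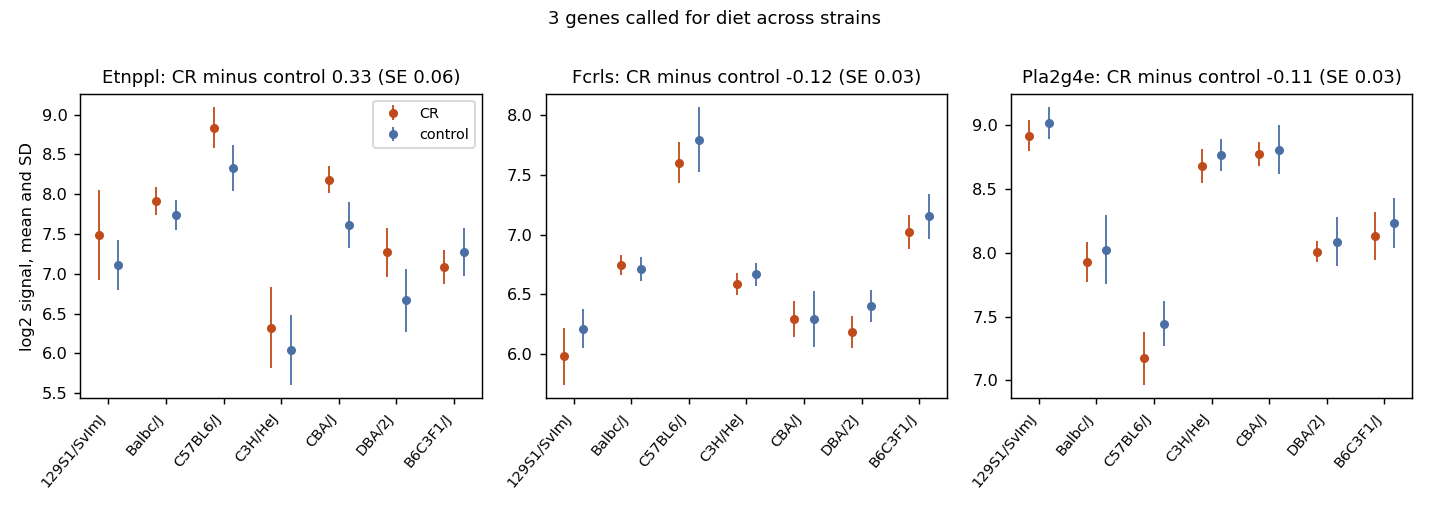
Mean log2 signal with SD (vertical axis) of Etnppl, Fcrls and Pla2g4e in the 7 strains (horizontal axis), CR mice on the left and control mice on the right of each strain, with n = 8 mice, or 7 for control C57BL6/J and B6C3F1/J. Differences between strains exceed those between diets: the CR range over strains was 2.51, 1.62 and 1.74 log2, against CR minus control of 0.33, −0.12 and −0.11.

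The 23 genes held fewer protein-coding genes than the whole set, 15 of 23 or 65.2%, against 93.2% of all 19938 genes. Long non-coding RNA genes made up 21.7% of them (5 of 23), against 3.64% of all genes, and 2 were pseudogenes. No 2 of them were next to each other on a chromosome in RefSeq order. Of the 90 genes that were their 2 nearest measured neighbours on either side, 13.3% had a CR range of at least 0.5 log2, against 7.71% of all genes, and 3 reached 1 log2, namely Mid1 beside G530011O06Rik, Cd59b and Snord47.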

How the data were processed

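RNA from the cortex of each mouse was labelled with biotin and hybridised to Affymetrix Mouse Gene arrays; the authors summarised probe sets by RMA in Affymetrix Expression Console and deposited log2 signal values, used here as given; their versions and genome build were not stated in the sources read. The 35556 probe sets were named from the platform annotation: 21789 carried 1 symbol, 1621 several and 12146 none, and the last 2 kinds were not selected from. Members and lists were chosen with earlier results of these data known. Genes were named by a rule: the 20 of largest range, those nearest the threshold, and those called for diet, nearest or outside a parent, or with further probe sets. Fits used limma 3.58.1 in R 4.3.3 on all 19938 genes, with Benjamini-Hochberg adjustment: the 56 CR arrays for strain and hybrid, and 110 arrays with 14 group means for diet. The steps were tested on simulated data. No 2 arrays were identical. All members matched RefSeq (GRCm38.p6), 21 by gene number, 1 by symbol and 1 by an older symbol; only miRNA and promoter sequences carry its coordinates. Alternatives covered normalization, centring, filters, weights, variance models, arrays, strains and probe sets.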

Additional observations from a re-analysis of the deposited data

Results flagged for a closer look

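In 24 of 322 groups of a gene, strain and diet, involving 16 of the 23 genes, 1 mouse lay far from the others by Dixon's ratio, the gap to the nearest other array divided by the range of the group. Chance gives about 1 in 20 groups, here 16.1.

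In CR mice the isolated high arrays were those of Pttg1 in DBA/2J (0.612), Etnppl in B6C3F1/J (0.651), G530011O06Rik in Balbc/J (0.709), Dnah6 in B6C3F1/J (0.617), Nlrp5-ps in DBA/2J (0.548) and Eqtn in CBA/J (0.535). The isolated low arrays in CR mice were those of 4930578G10Rik in C3H/HeJ (0.596), Gm10590 in C3H/HeJ (0.585), Zfp605 in CBA/J (0.541), Fcrls in 129S1/SvImJ (0.673), Pla2g4e in CBA/J (0.568) and Mir665 in Balbc/J (0.528). The array of C3H/HeJ CR replicate 8 was the low one for both 4930578G10Rik, at 8.83 log2 where the next array had 9.72, and Gm10590, at 9.55 where the next had 10.16.

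In control mice the isolated high arrays were those of AI506816 in 129S1/SvImJ (0.593), Etnppl in DBA/2J (0.574), Ttr in CBA/J (0.552), Eqtn in B6C3F1/J (0.65) and Mir665 in DBA/2J (0.75). The isolated low arrays in control mice were those of Gm10590 in C57BL6/J (0.624), Zfp605 in C3H/HeJ (0.54), AA388235 in 129S1/SvImJ (0.534), Fcrls in DBA/2J (0.638), Pla2g4e in C3H/HeJ (0.576), and Gas5 in 129S1/SvImJ (0.534) and CBA/J (0.549). The largest ratio belonged to Mir665, at 10.19 log2 in DBA/2J control replicate 8, where the next array of that group had 9.11. The same array lay 1.43 log2 above its group in the 12 cerebellar markers, and their part was not tested.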

How the results depend on the processing

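The count of genes that differed between CR strains was 22, and that of 2-level genes higher in the high strains 11, under quantile normalization, median centring, another variance model, array weights, every probe set on its own, a joint fit of all groups, and without CBA/J CR replicate 6, an array high in cerebellar genes. The hybrid count against the log2 mean, 7 in the main fit, was 6 in the joint fit and 8 with array weights. Zfp605 was not called for the hybrid in the joint fit (limma, adjusted p = 0.080) or under quantile normalization (adjusted p = 0.057). Under quantile normalization Klk1b22 was called instead (adjusted p = 0.046), so that count stayed at 7. Restricting the fit to genes above the median gene, which keeps 9 of the 23, gave 8 genes for strain, 3 for the 2-level comparison and 2 for the hybrid, since fewer genes were tested. Among the genes called against the log2 mean, the hybrid difference turned for Pttg1 (−0.245) and Zfp605 (−0.05019, adjusted p = 0.71) against the unlogged parental mean. The sign also turned for AA388235 (−0.020), Gas5 (−0.138) and G530011O06Rik (−0.140), which were called against neither mean. The diet count was 1 without 129S1/SvImJ and 1 without DBA/2J. The methods' t-test on unlogged signal called 0 of the 23 at its threshold in at least 3 strains, and 0 after Benjamini-Hochberg in at least 1 strain, beside 27 and 17 of all genes. The lower of 2 other thresholds on the control range selected 55 genes and the higher, 2 log2, selected 9, and with all 112 arrays 20 of the 23 genes were shared.

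Whether replicate numbers paired the mice was not settled. The correlation of same-numbered CR and control mice ran from −0.48 to 0.37, and exceeded 0.1 in 31 of 56 pairs. No other-numbered CR and control mice were set beside them. Between CR arrays of 2 strains, the mean correlation was 0.027 for the same number and −0.004 for other numbers. With the replicate block the counts were 22 for strain, 11 for the 2-level genes, 7 for the hybrid and 3 for diet, so the block changed no count.

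Strain variants under the probes change hybridisation without a change in RNA; probe sequences were not used here, so this was not tested. The number of arrays, 8 mice in a group, limits precision.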
